A study of Mus musculus with 2 samples.

Results

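The cytosolic ribosomal protein genes encode the proteins that, with ribosomal RNA, build the small (Rps) and large (Rpl) subunits of the ribosome in the cytoplasm. They were taken as the protein-coding genes whose symbol is Rpl or Rps with a number, Rplp0, Rplp1, Rplp2 or Rpsa, leaving out ribosomal protein S6 kinases and pseudogenes. This gave 84 of the 43346 annotated genes of the files, 32 of the small and 52 of the large subunit. Of these, 7 are second copies of another gene of the set and are called paralogs here (Rpl3l, Rpl7l1, Rpl10l, Rpl22l1, Rpl36al, Rpl39l and Rps27l), and the other 77 are called core genes. Fau, which encodes a ribosomal protein fused to a ubiquitin-like protein, does not match the naming rule and served as a comparison.

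The data were total RNA sequencing of the facial prominences, the embryonic tissue that forms the face, of B6NCrl mouse embryos at 11.5 days. There was 1 group with 2 libraries, each from its own pool of both sexes (109 embryos in library 1, 88 in library 2). The input was 10 ng of size-selected RNA, over 200 nt in length, to which spike-in RNA had been added. The labels gave no treatment, genotype or second tissue, so no test between groups was possible, and the SD over 2 libraries is the only replicate error. The libraries held 30849058 and 31600302 estimated reads. Markers of facial mesenchyme were present (mean of both libraries: Msx1 at 263, Alx1 at 131 and Prrx1 at 101 TPM, the transcript abundance per length scaled to a fixed library total), as were the ectoderm marker Epcam at 54.2 TPM and the red blood cell genes Hbb-y at 7094 and Hba-x at 1823 TPM. In a bulk tissue, fewer cells of a type and less RNA per cell cannot be told apart.

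A ribosome holds its proteins in near equal numbers, and the genes for them are among the most strongly transcribed of growing cells. Their messenger RNAs typically begin with a run of pyrimidines, the 5′ terminal oligopyrimidine tract, through which translation is tied to growth signals. The family has also left very many processed pseudogenes in mammalian genomes, copies made from messenger RNA, so that short reads can match several places.

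The annotated starts of the genes were searched for pyrimidine runs and a few other short motifs. RefSeq start windows (GRCm38.p6, from 250 bases before to 50 after the start) were at hand for 64 of the 84 genes, 57 core genes and 7 paralogs. A C followed by at least 5 bases that are each C or T, read on the gene's strand from 10 bases before to 50 after the start, was found in 48 of 57 core genes (84.2%) and in 38.7% of 16317 protein-coding genes. The ETS-type hexamer CTTCCG, on either strand, was found anywhere in the window in 40 of 57 core genes (70.2%) against 22.3%, and its longer form ACTTCCG in 20 (35.1%) against 8.99%. TATAAA, on the gene's strand from 40 to 11 bases before the start, was found in 0 of 57 core genes, in 2.86% of all genes and in 1 paralog, Rpl22l1. GCCATCTT, on either strand, was found in 4 of 57 core genes and in 3.31% of all genes. These counts are matches of letters, not sites. They need not be independent, since the longer ETS-type form holds the shorter one. The 4 windows below run from 30 bases before to 30 after the start, with the start at base 31, and are shorter than the windows searched. Capitals mark every pyrimidine run and ETS-type hexamer in the bases printed, whether or not it lies in the window counted for the run. Rpl38 and Rpl22l1 show a counted run, and Rpl41 and Rpl38 show the hexamer. The counted run of Rpl41 lies past the printed bases, and that of Rpl4 starts at the last of them and goes on past them.
Rpl41: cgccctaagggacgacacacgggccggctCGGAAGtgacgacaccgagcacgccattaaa
Rpl38: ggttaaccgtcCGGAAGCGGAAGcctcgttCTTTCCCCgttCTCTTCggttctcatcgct
Rpl4: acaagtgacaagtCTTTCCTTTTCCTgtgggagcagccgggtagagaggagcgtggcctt
Rpl22l1: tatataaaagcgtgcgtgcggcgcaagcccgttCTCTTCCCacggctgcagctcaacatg
In order, these are chr10:128549139-128549198 on the minus strand, chr11:114668550-114668609, chr9:64173357-64173416 and chr3:28805478-28805537 on the plus strand. In Rpl38, whose loss alters the body axis in mice, the first run began exactly at the annotated start. In Rpl22l1 the run began at transcribed base 4, and in Rpl4 the capitalised run began 17 bases before the start, ahead of the counted window.

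Nearly all of the genes were transcribed in the facial prominences. At a threshold of 1 TPM in both libraries, 81 of 84 genes (96.4%) were detected, against 58.5% of protein-coding genes. The median gene had 655 TPM against 3.45 TPM for all protein-coding genes, and 80 genes were above 100 TPM in both libraries. The genes summed to 58596 TPM in library 1 and 57058 TPM in library 2. They held 2.54% ± 0.0551 (SD, n = 2) of the estimated reads on genes, and 6.85% ± 0.107 of the TPM on genes, the second share being larger because TPM divides by length and these transcripts are short. Of the 100 protein-coding genes with the highest mean TPM, 26 were of this family. The 77 nuclear genes for mitochondrial ribosomal proteins had a median of 85.9 TPM, the 14 genes of the 20S proteasome 374 TPM, and the 8 genes of the cytosolic chaperonin 518 TPM.

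**Figure D1:**
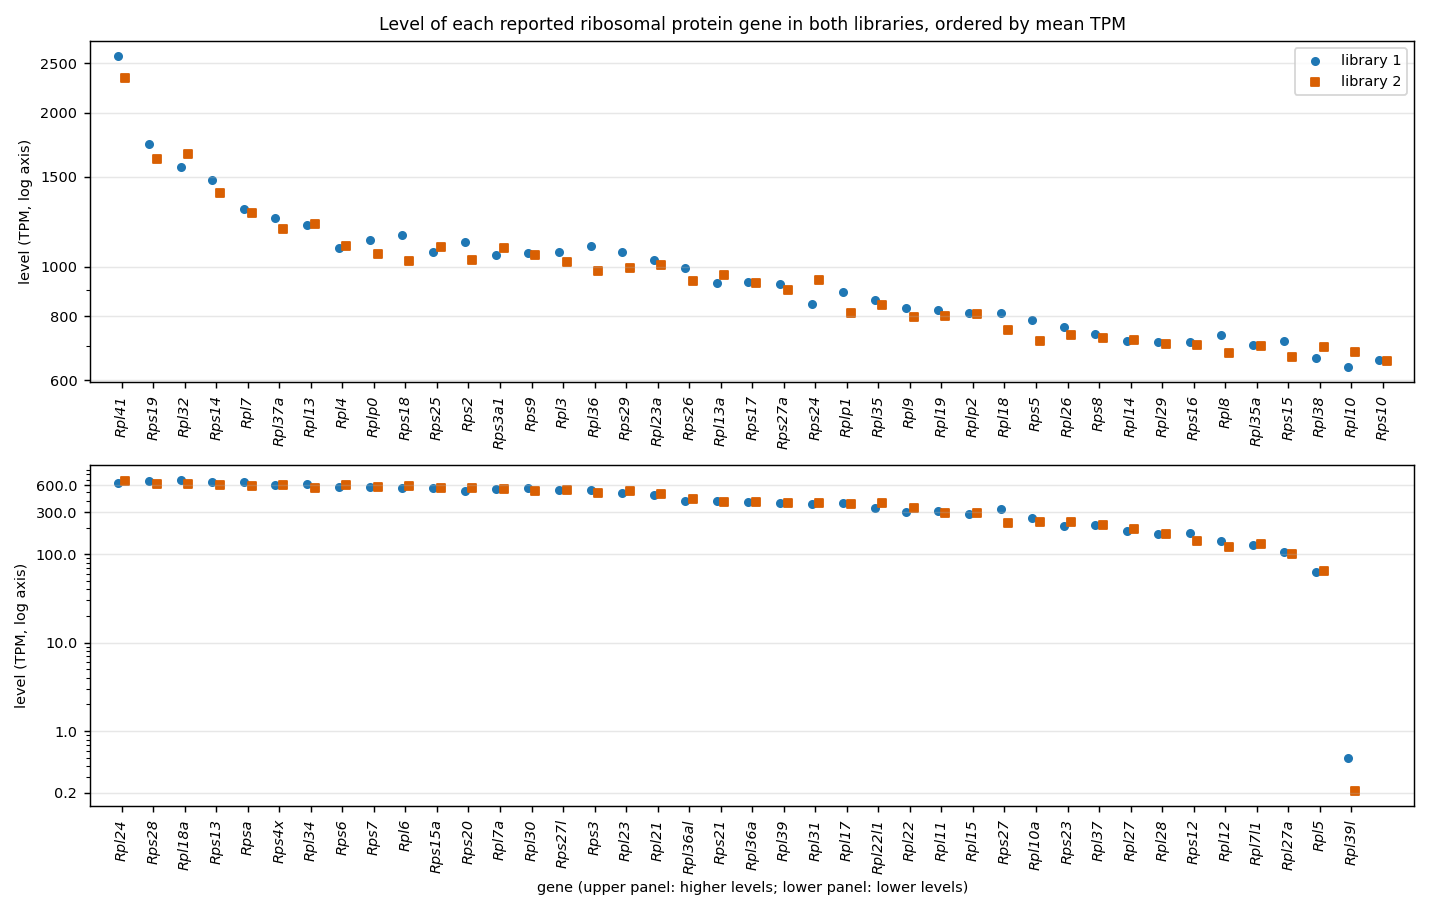
Level of each reported gene in library 1 (circles) and library 2 (squares), in TPM on a log axis, ordered by mean. Most genes lie between 300 and 1300 TPM with both libraries close together, Rpl41 is at the top, and Rpl5 and Rpl27a are the lowest core genes; Rpl3l and Rpl10l, at 0 in both libraries, are not drawn.

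Rpl41, which encodes the smallest protein of the large subunit, had the highest level, with 2582 TPM in library 1 and 2336 TPM in library 2. Rps19, a small subunit gene mutated in many patients with Diamond-Blackfan anemia, followed with 1743 and 1626 TPM. Rpl32 had 1565 and 1660 TPM. Other high genes were Rps14 (1476 and 1394 TPM), Rpl7 (1297 and 1277 TPM) and Rpl37a (1248 and 1188 TPM). Rpl13 (1207 and 1214 TPM), Rpl4 (1090.1 and 1101 TPM) and Rplp0 (1131 and 1057 TPM) were also among the 10 highest. Rpl41 stood apart from the rest in both libraries, whereas the values of Rps19 and Rpl32, and those of Rpl4 and Rplp0, overlapped.

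The genes for the stalk of the large subunit, which recruits translation factors, were at similar levels. Rplp0, the base of the stalk, is given above, and its acidic partners had 895 and 814 TPM (Rplp1) and 814 and 807 TPM (Rplp2). All of the stalk genes were thus above the family median in both libraries. Among genes known from loss of function, Rps24, another Diamond-Blackfan anemia gene, had 847 and 944 TPM, Rpl38 663 and 698 TPM, and Rpl24, altered in the mouse mutant Belly spot and tail, 636 and 674 TPM. Rpl11, a Diamond-Blackfan anemia gene whose protein also binds the p53 regulator Mdm2, had 312 and 293 TPM on its own entry, and a mean of 614 TPM together with near-identical copies elsewhere in the genome (described further on), which held 50.7% ± 3.22 of that sum. Of the estimated reads on Rpl11 and its copies, the copies held 41.6% ± 3.18. Fau (474 and 454 TPM) lay within the range of the family. On their own entries, the small subunit core genes had a median of 708 TPM and those of the large subunit 670 TPM. This difference was small against the spread among the core genes. With near-identical copies added, the medians were 974 and 801 TPM.

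The lowest core genes were Rpl5, whose protein forms a particle with 5S ribosomal RNA and Rpl11, at 63.5 and 64.2 TPM, and Rpl27a at 105 and 101 TPM. Rpl12 had 140 and 119 TPM, Rps12 175 and 140 TPM, and Rpl28 170 and 171 TPM. The median core gene had 692 TPM, and these 5 lay below it in both libraries, which follows from their choice as the lowest. The SD of log2 TPM over the 77 core genes was 0.96, and the level at the 90th percentile was 4.90 times that at the 10th. The same SD was 0.42 for the proteasome and 0.42 for the chaperonin, whose subunits are also needed in fixed proportion, 0.82 for the mitochondrial ribosomal protein genes and 2.10 for all detected protein-coding genes.

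Near-identical copies elsewhere in the genome took estimated reads at much of the family, and at the core genes below 300 TPM they took more TPM than the gene itself. A copy was defined as another gene with at least 90% identity to the coding sequence over at least 100 nt (or over 90% of a shorter coding sequence), and there were 797, of which 754 are annotated as processed pseudogenes. The whole entry of a copy was counted, including any part that did not align. Of the 84 genes, 80 had a copy and 70 had a copy at 1 TPM or more, so having copies was not particular to the low genes. Most were silent or nearly so in the estimates, with 325 listed at 0 in both libraries and 146 at 1 TPM or more. Of the 31 copies at 100 TPM or more, 20 were identical to the gene over the aligned part. The copies together held 15466 to 15881 TPM, which is 21.3% of the TPM of genes and copies combined, with an SD over libraries of 0.00184 percentage points.

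Rpl5 and its copy Gm15500, a transcribed processed pseudogene (chr7:114705217-114706235, mm10), were identical at all 894 of 894 coding bases. The first 60 coding bases are shown to make the problem of assignment visible, and no capitals occur because no base differs.
Rpl5: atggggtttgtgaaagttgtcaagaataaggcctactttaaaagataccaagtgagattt
Gm15500: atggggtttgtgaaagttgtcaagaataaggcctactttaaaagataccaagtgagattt
Gm15500 had 700.2 TPM in library 1 and 677 TPM in library 2, far above Rpl5 itself. With its 8 copies, the Rpl5 sequence came to a mean of 753 TPM, 91.5% ± 0.244 of it on copies. A read from within the coding sequence cannot separate these entries, and whether the reads came from the gene or the copy was not tested. The copies named here and below were chosen after their values were seen.

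The same arrangement was found at other low genes. Rps23, which lines the decoding centre, had 207 and 232 TPM, and its copy Rps23-ps1 (chr3:37714740-37715164) had 1248 and 1271 TPM, with 425 of 425 aligned bases identical. Rpl27a had 84.1% of its summed TPM on copies, led by Gm7536 at 517 and 560.4 TPM. Rpl27 had 84.6% on copies, split between Gm11518 (544 and 565 TPM) and Rpl27-ps3 (496 and 458 TPM). Rpl28 had 76.1% on copies, led by Rpl28-ps1, Rpl12 had 72.3%, led by Gm10275, and Rps12 had 71.0%, led by Rps12l1. Rps12l1 matched Rps12 at all 399 bases that aligned, of 414 coding bases of Rps12. In estimated reads these shares were lower: 64.2% for Rpl27a, 76.0% for Rpl27, 65.0% for Rpl28, 62.1% for Rpl12 and 66.9% for Rps12. In total 15 genes had at least 50% of their summed TPM on copies (9 when shares were taken from estimated reads), and 30 of 82 genes with any reads had under 1%. Many copies did not always go with a large share: Rpl21 had 60 copies and 21.2% of its summed TPM on them.

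**Figure D2:**
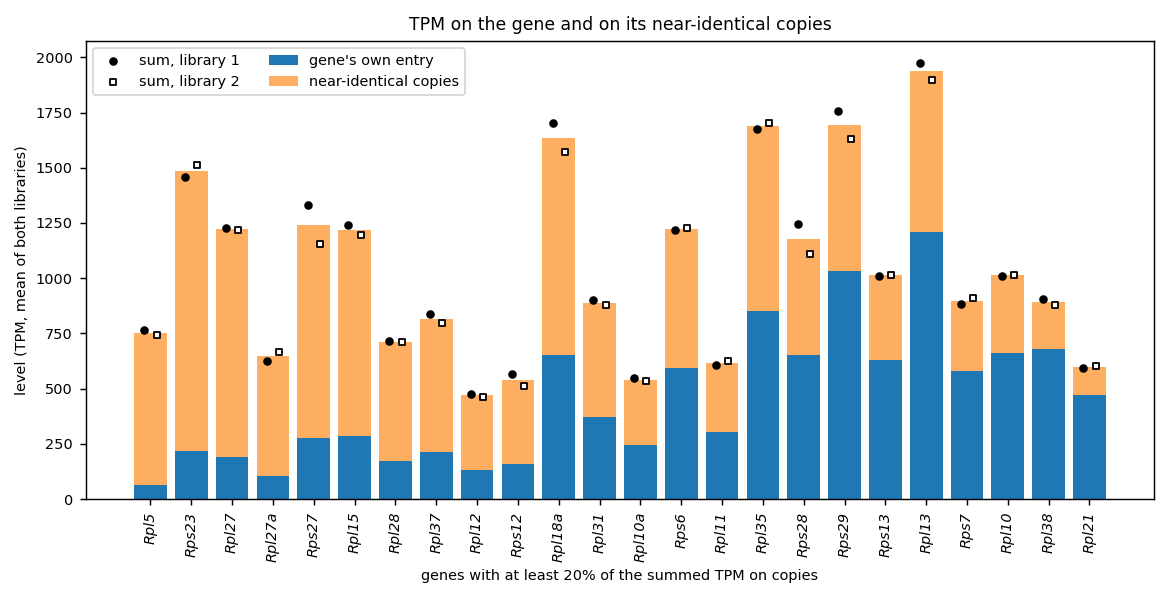
TPM on the gene's own entry (blue) and on its near-identical copies (orange), mean of both libraries, for the genes with at least 20% of the sum on copies, with the sum in each library as points. The own levels of Rpl5, Rps23, Rpl27 and Rpl27a are small parts of sums that lie between 646 and 1485 TPM.

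Adding the copies narrowed the spread of the family. All 11 core genes below 300 TPM had copies above their own level in TPM, and 0 of 77 stayed below 300 TPM when copies were added. By estimated reads, the copies of Rpl37 (42.2% of the sum) and Rpl10a (47.7%) did not exceed the gene. The bound of 300 TPM was not among the planned thresholds, and adding copies can only raise a level. Just above the bound, Rpl11 at 303 TPM had 50.7% of its summed TPM on copies, whereas Rpl22 at 316 TPM had 0.129%. The SD of log2 TPM over core genes went from 0.96 to 0.60 and the ratio of the 90th to the 10th percentile from 4.90 to 2.75. The lowest sum was then that of Rpl22 at 316 TPM, and the highest was that of Rpl41 at 2636 TPM. Across the 77 core genes, the level of the gene's own entry and the percent on copies had a Spearman rho of -0.51, which is a description over genes measured in the same libraries, and which is partly built in because the level is part of the sum.

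The authors' posterior SD of the count, which measures how far the read assignment leaves a count undetermined, followed the copies. Expressed as percent of the count (the larger of both libraries), it had a Spearman rho of 0.96 with the percent on copies over the 77 core genes. This relation too is partly built in, since the reads on the gene's own entry enter both measures. The posterior SD exceeded 10% in 1 of 81 genes with at least 50 estimated reads, against 3.12% of all such genes. It exceeded 1% in 21 of 81, against 11.7%. The gene above 10% was Rps27, at 8.24% in library 1 and 10.8% in library 2. Rps12 followed at 5.34% and 6.24%, and Rpl5 was at 3.09% and 2.94%. Rpl10 (2.22% and 2.86%), Rpl12 (2.40% and 2.85%), Rpl28 (2.60% and 2.70%), Rpl10a (2.41% and 2.61%) and Rpl27 (2.49% and 2.47%) completed the 8 highest. A small posterior SD does not say that reads were placed on the right entry, only that the estimate was stable.

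**Figure D3:**
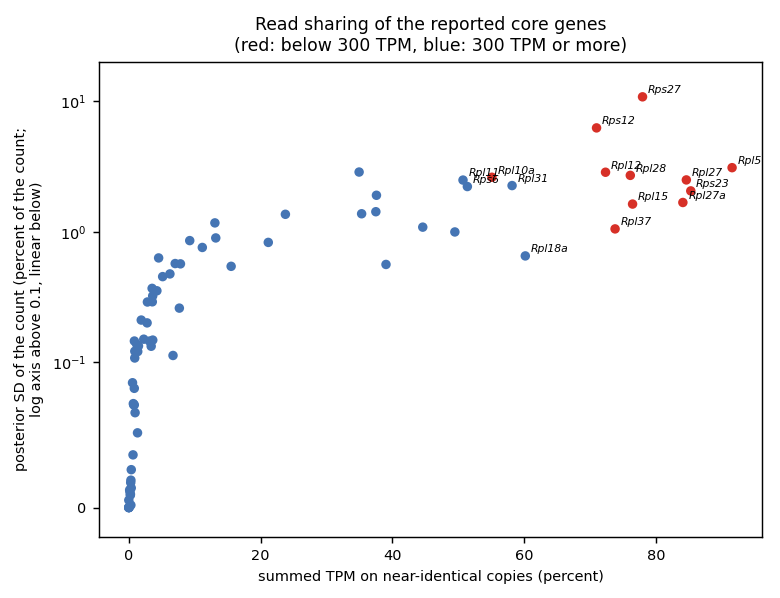
Posterior SD of the count, in percent of the count (log axis above 0.1, linear below), against the percent of the summed TPM on copies, for each reported core gene, with genes below 300 TPM in red. Red genes lie at the right, from Rpl10a at 55.1% to Rpl5 at 91.5% on copies, and Rps27 has the highest posterior SD at 10.8%.

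The 2 libraries had near-equal levels of the family. Estimated reads were scaled by TMM, a trimmed mean of ratios over genes, and the ratio of library 2 to library 1 was taken for the 81 genes with at least 50 reads. A ratio of at least 125% or at most 80% was found in 1 of 81 genes, Rps27, against 17.9% of all 14790 genes with at least 50 reads. That gene was higher in library 1 (10.8% of all genes were), and 0 of 81 were higher in library 2 (7.13% of all genes). The background includes many genes with fewer reads, since 6742 of the 14790 had at least as many as the lowest of the 81. The share past these limits was not taken over the 6742 alone. It was 0 of 77 mitochondrial ribosomal protein genes, 0 of 14 proteasome, 0 of 8 chaperonin and 0 of 13 other translation genes. Close libraries were thus not particular to this family. The median log2 ratio of the 81 genes was 0.01 and that of all genes 0.00266. The exact 95% interval of the ratio, which covers counting error only, excluded 1 for 52 of 81 genes, 28 higher in library 1 and 24 higher in library 2, against 42.6% of all genes and 53.6% of those 6742 genes. These intervals compare 2 libraries and not conditions, and they take no account of differences between pools.

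Rps27, which encodes a zinc finger protein of the small subunit, had 1052 and 729 estimated reads, 329 and 224 TPM, and a ratio of 0.694 (95% interval 0.631 to 0.764). It also had the highest posterior SD, and with its copies the ratio was 0.909. Rps12 had a ratio of 0.817 (0.754 to 0.885), and 0.918 with copies. Rpl12 had 0.871 (0.819 to 0.927), and 0.974 with copies. Rpsa, whose small subunit protein is also known as the laminin receptor, was at 0.904 and Rps18 at 0.905, with few reads on copies. For Rps27, Rps12 and Rpl12 the own ratio was thus further from 1 than the ratio with copies. In the other direction, Rps23 had a ratio of 1.14 (1.09 to 1.20; 1.07 with copies), Rpl22l1 1.14 (1.08 to 1.20; 1.09 with copies) and Rps24 1.14 (1.1001 to 1.176). Most reads on the copies of Rpl22l1 were on Orc5 (1816 and 1832 reads), a protein-coding gene of which 340 nt aligned. Its ratio with copies thus mixes in reads of another gene, and how many came from the aligned part was not tested. Rps20 was at 1.098, with 0 TPM on copies, and Rpl10 at 1.09, or 1.04 with copies, which held 34.9% of its summed TPM. Rps24 stayed at 1.14 with its copies, which held 0.834% of its summed TPM.

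**Figure D4:**
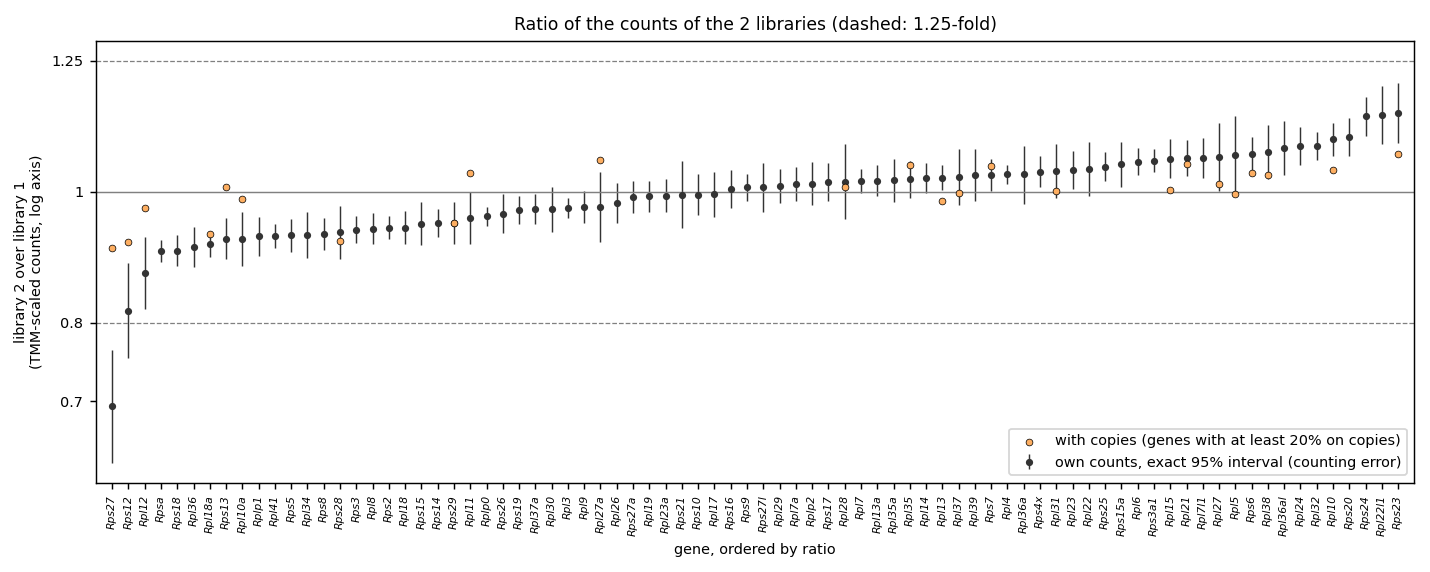
Ratio of library 2 to library 1 in TMM-scaled estimated reads (log axis) for the reported genes with at least 50 reads, with exact 95% intervals for counting error, dashed lines at 80% and 125%, and orange points for the ratio with copies in genes with at least 20% on copies. Only Rps27 at 0.694 lies beyond a dashed line, and its point with copies lies at 0.909.

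By the own entries of each pair, with all transcripts together, the paralogs fell into 3 kinds: absent or nearly so, minor, and at least as high as the first gene. Rpl3l, whose protein replaces Rpl3 in striated muscle, and Rpl10l, a testis gene, had 0 reads in both libraries, which allows up to 0.162 and 0.158 TPM in library 1 (3 reads). Rpl39l, likewise known from testis, had 0.50 and 0.21 TPM from 7 and 2 reads, against 375 and 379 TPM for Rpl39. The spermatogenic markers Ddx4 and Sycp3 were at 0.71 and 0.225 TPM, and Tnp1 was listed at 0. Of the muscle genes, Myog had 11.5 and 14.9 TPM and Actc1 43.3 and 87.0 TPM, Actc1 being 2.05 times as high in library 2 (95% interval 1.91 to 2.19, counting error only). Rpl7l1 had 127 and 132 TPM, 9.14% ± 0.318 of the TPM of its pair with Rpl7.

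With all transcripts together, Rpl22l1 and Rpl36al were as high as the genes they resemble. Rpl22l1, whose protein can replace that of Rpl22, had 338 and 378 TPM, against 303 and 329 TPM for Rpl22. It held 53.1% ± 0.520 of the TPM of the pair. However, 63.0% and 61.6% of the TPM of Rpl22l1 was on coding transcripts, against 98.2% in both libraries for Rpl22. The leading coding transcript had 178 and 195 TPM in Rpl22l1, below the 256 and 286 TPM of that in Rpl22. Rpl36al had 396 and 420.3 TPM, against 387 and 392 TPM for Rpl36a, or 51.2% ± 0.845 of the pair. The shares of both paralogs varied little between the libraries. Rps27l had 536 and 529 TPM, 66.1% ± 5.87 of its pair, but Rps27 itself shares its sequence with Rps27rt (998 and 930.3 TPM; chr9:114982366-114982739), 255 of 255 coding bases being identical. The share of Rps27l in its pair therefore depends on where the reads of Rps27 were placed. With its copies, Rps27 had a mean of 1242 TPM, above the 533 TPM of Rps27l. The TPM of Rps4l, annotated as a transcribed processed pseudogene and so no member, was 22.1% ± 0.914 of that of Rps4x and Rps4l together.

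**Figure D5:**
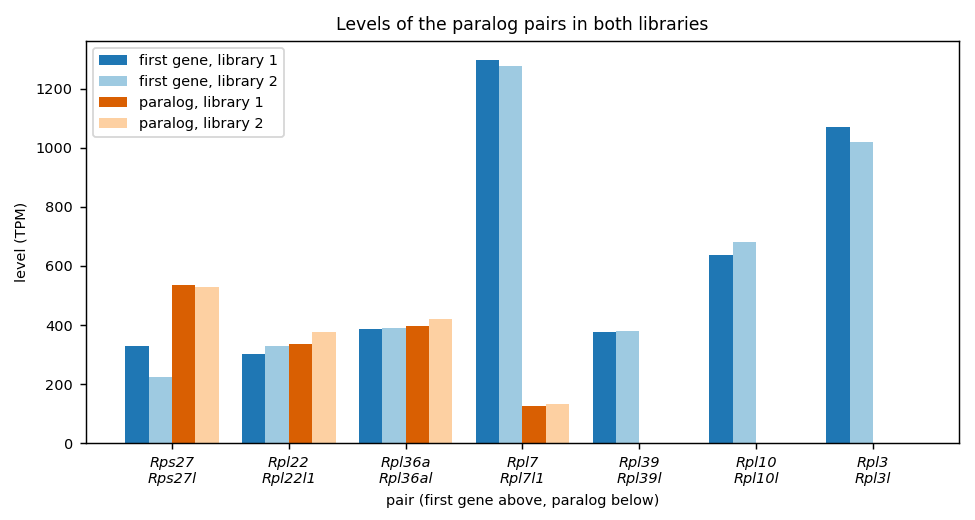
Level in TPM of the first gene (blue) and the paralog (orange) of each pair in library 1 (dark) and library 2 (light). On the own entries drawn, with all transcripts together and without copies, Rps27l, Rpl22l1 and Rpl36al are at or above the first gene. Rpl7l1 is far below Rpl7 (132 against 1277 TPM in library 2), and Rpl39l, Rpl3l and Rpl10l are at or near 0.

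Unlike the identical copies, the paralogs differ in sequence from the first genes of their pairs. The first 60 coding bases of Rpl36a and Rpl36al, with capitals at the 11 bases that differ, are shown as the closest pair, and those of Rps27 and Rps27l, with 18, for the contrast with Rps27rt.
Rpl36a: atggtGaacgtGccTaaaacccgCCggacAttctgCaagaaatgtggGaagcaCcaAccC
Rpl36al: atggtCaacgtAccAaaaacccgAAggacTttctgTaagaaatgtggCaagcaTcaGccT
Rps27: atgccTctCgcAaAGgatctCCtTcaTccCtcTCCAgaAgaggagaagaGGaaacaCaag
Rps27l: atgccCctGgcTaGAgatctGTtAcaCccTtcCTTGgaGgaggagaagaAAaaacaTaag
Over the whole coding sequence the identity was 87.9% for Rpl36a and Rpl36al, 85.3% for Rpl39 and Rpl39l, 84.8% for Rpl10 and Rpl10l, and 76.1% for Rps27 and Rps27l. For Rpl22 and Rpl22l1 it was 68.6% or 74.9%, depending on how strictly the alignment scored mismatches. For Rpl7 and Rpl7l1 no identity is given, since the 2 scorings did not give comparable alignments. The posterior SD of Rpl36a and Rpl36al was at most 0.122% of the count.

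Most of the TPM of the family was on transcripts annotated as coding. These took 91.0% ± 0.238 of it, transcripts of the biotype processed transcript 4.21%, those with a retained intron 3.02%, those marked for nonsense-mediated decay 0.469%, and transcripts that are not in the annotation used for biotypes, whose biotype is thus unknown, 1.33%. Of 82 genes with reads, 66 had at least 90% of their TPM on coding transcripts and 5 had under 50% on transcripts known to be coding. The same shares were not taken over all genes, so these counts cannot be called high or low. Genes whose only annotated transcript is coding, such as Rpl32, are at 100% by construction. In Rpl35, 4.34% and 5.12% of the TPM was on a coding transcript, and a processed transcript of 541 nt took 87.9% and 90.2%. In Rps20, 6.66% and 6.62% was on a coding transcript, and a transcript of 582 nt annotated with a retained intron took 92.2% and 92.5%. The only coding transcript of Rps20 among these entries is 3706 nt long. In Rpl12, 19.0% and 18.1% was coding and a decay-marked transcript of 729 nt took 60.5% and 64.9%. Rpl23 was at 37.1% and 34.5%, with 62.3% and 64.8% on a processed transcript of 728 nt. Rpl13a was at 27.1% and 23.5%, but most of its remaining TPM was on transcripts of unknown biotype, one with 37.3% and 40.2% and another with 30.3% and 29.8%, so its coding share is not known. These shares were close in both libraries, and the leading transcript was the same in both for 81 of 82 genes. The 81 include genes with 1 annotated transcript, such as Rpl32 and Rpl4, in which it could not differ. The shares rest on the annotated biotype of transcripts that overlap each other for most of their length.

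Some of these genes also hold small nucleolar RNA genes, whose RNAs guide the modification of ribosomal RNA. Inside 30 of the 84 genes, on the same strand, 58 such genes were annotated. Whether they lie in introns was not checked, and the share of all genes that hold one was not taken. The core genes with one had a median of 629 TPM and those without 710 TPM, and with copies added the medians were 799 and 897 TPM. The family was spread over 19 chromosomes, with 14 of 84 genes on chromosome 7, which holds 9.08% of protein-coding genes.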

How the data were processed

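Members and gene lists were chosen with earlier results of these data known. Per the deposited notes, the authors quantified each library against GENCODE M4 on mm10; columns carry RSEM's names. Aligner, versions and strandedness: not given in the sources used here. The deposited expected counts are the authors' estimated reads, TPM is scaled over all entries including spike-ins, and posterior mean counts, posterior SD (a score in reads) and isoform percent were also deposited. Effective length is length minus 99 nt. Symbols and biotypes came from GENCODE M21.

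No group contrast exists, so no model was fitted. Ratios used TMM factors (edgeR 4.0.16) on expected counts rounded to whole reads for the exact Clopper-Pearson 95% interval, with at least 50 reads over both libraries; this step was tested on simulated data. Copies were found with BLAST 2.17.0 from the main complete coding transcript, on the plus strand, each given to its best-scoring gene. Coding identities came from global alignments with free end gaps (Biopython 1.88). The alignment scoring was changed after the first scoring aligned too few bases of Rpl7 and Rpl7l1, and the identity under the first scoring is given where it differed by over 1 percentage point. Named genes were the 10 highest, those under 1 TPM, the 5 lowest core genes, paralog pairs, the 5 largest ratios each way, the 8 largest posterior SDs, Rps19, Rpl5, Rpl11, Rps24, Rpl38, Rpl24, the stalk genes and Fau; 1 member and 1 comparison gene that the rule names are not reported here, though the member stays in all counts and medians. Others are named as they bear on these, or were chosen after their values were seen. Alternatives covered scaling, thresholds, lengths, posterior means, each library alone and copies.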

Additional observations from a re-analysis of the deposited data

How the results depend on the processing

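No paired analysis was possible because there was only 1 group. Each library alone gave 81 detected genes, a median of 661 to 664 TPM (main 655), 2.50% to 2.58% of reads, an SD of log2 TPM of 0.96 to 0.97, a small over large subunit ratio of 1.04 to 1.06, a median paralog share of 8.92% to 9.37%, 90.8% to 91.1% on coding transcripts, 14 to 16 genes with 50% or more on copies, and 0 to 1 genes with a posterior SD above 10%. The median level was 637 TPM from posterior means, 616 from counts per annotated length, 776 over genes alone and 819 with copies, the last chosen after seeing the data, as were all settings with copies. The share of reads was 2.36% of all entries and 6.85% by TPM. The SD of log2 TPM was 0.95 per annotated length, 0.98 over all detected genes and 0.60 with copies; the subunit ratio was 1.04 per annotated length and 1.22 with copies; the median paralog share was 9.98% per annotated length; basic transcripts held 86.1%. With a posterior limit of 5%, 2 genes passed, and with 20%, 0. Genes past the fold numbered 2 by total counts, by spike-ins or with no count minimum, 8 at 1.1-fold, and 0 at 1.5-fold, with copies or among genes with a posterior SD of at most 10%. The median log2 ratio turned to -0.024 by total counts and -0.053 by spike-ins, where all genes moved to -0.033 and -0.062, and was 0.00419 with copies. By estimated reads, 9 genes had 50% or more on copies. Depth limits the genes near 0, and identical copies leave the placing of reads undetermined; the cause of the other shifts was not tested.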
